A study of Mus musculus with 5 samples.

Results

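A set of 7 genes that encode, with 1 exception, membrane proteins linked to the IL-17-producing subset of natural killer T (NKT) cells was examined in NKT cells of mouse thymus: Tmem176a, Tmem176b, Sdc1, Aqp3, Serpinb1a, Ltb4r1 and Cd163l1. The genes were chosen by name, with earlier results of these data known. Every non-control probe whose RefSeq accession maps to 1 of these symbols was taken. This gave 8 probes of 55681 on the array, for 7 of the 20022 genes that could be named. For each sample T cells were enriched out of 10 pooled thymi, and those positive for both CD3e and a CD1d tetramer were collected by sorting. IL15ko denotes 2 samples from IL15-/- mice, which carry no functional gene for the cytokine interleukin-15. The other 3 samples came from wild-type mice, and all mice were on the C57BL/6 background. Each sample was hybridised to 1 Agilent 1-colour array. The labels used here give neither the age nor the sex of the animals, and do not say whether samples of 1 group came from separate pools, so p-values measure the spread between these samples only, which may be technical.

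NKT cells, T lymphocytes whose receptor binds CD1d with lipid, divide in the thymus into subsets. NKT1 cells depend on T-bet, make interferon-gamma and carry receptors for IL-15. NKT2 cells make IL-4 and hold much PLZF, and NKT17 cells make IL-17 and are known for receptors of IL-23 and IL-1. Syndecan-1 (Sdc1), a heparan sulphate proteoglycan also found on plasma cells, has served as a surface marker of mouse NKT17 cells. In bulk samples such as these, a larger share of NKT17 cells and more RNA of these genes per cell cannot be told apart.

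Tmem176a and Tmem176b are neighbours that start in opposite directions, and their RefSeq promoter windows overlap (GRCm38.p6). The stretch of 108 bases that separates a pair of their annotated start sites, chr6:48841375-48841482, is shown because both genes were higher in IL15ko. It reads on the plus strand, the strand of Tmem176a, with the capitals marking an E-box, CAGCTG, at chr6:48841425-48841430. The 250 bases before the start of Sdc1, chr12:8771146-8771395 on the plus strand, follow because Sdc1 had the largest difference of the 7 genes.
Tmem176a and Tmem176b: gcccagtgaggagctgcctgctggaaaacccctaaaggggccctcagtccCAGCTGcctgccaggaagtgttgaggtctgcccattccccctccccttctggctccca
Sdc1: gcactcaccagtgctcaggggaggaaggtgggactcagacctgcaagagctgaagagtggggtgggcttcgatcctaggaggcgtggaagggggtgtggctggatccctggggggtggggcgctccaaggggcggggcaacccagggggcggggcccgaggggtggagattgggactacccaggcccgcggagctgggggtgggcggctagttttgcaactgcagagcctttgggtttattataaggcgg

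Windows of 300 bases (250 before and 50 after the start) were given for 6 of the 7 genes, 9 windows in all. They were searched on both strands for 5 motifs: the nuclear receptor half-site AGGTCA, the longer form TAGGTCA that contains it, the STAT element TTCNNNGAA, the T-box core GGTGTGA and the E-box CAGCTG. The only match was that E-box. It lies in windows of both Tmem176 genes, with its first base 58 bases before the Tmem176a start, and is thus 1 site and not 2. Of all 32851 windows, 16.3% hold this E-box, 16.3% the nuclear receptor half-site, 2.61% the longer form, 8.3% the STAT element and 3.98% the T-box core. A match describes letters only, and the lack of one says nothing about a factor.

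Of all probes, 45.2% and 33.9% were well above background on IL15ko arrays 1 and 2, and 44.6%, 46.8% and 49.6% on wild-type arrays 1, 2 and 3. IL15ko 2 was the dimmest array: its 75th percentile was 440 signal units, against 1352 on IL15ko 1 and 1140, 885.1 and 1957 on wild-type 1, 2 and 3. Wild-type 1 and 2 lay unusually close. Their log2 difference had a robust SD of 0.155, against values for the remaining same-group pairs between 0.365 and 0.393. The Il15 probe was well above background on 0 of 5 arrays, so the deletion could not be checked. Xist was well above background on 2 of 2 IL15ko and 0 of 3 wild-type arrays. Among Y-linked genes, Uty was so on 0 and 3 and Kdm5d on 0 and 1, while Ddx3y and Eif2s3y were so on all 5. The sex of the pooled animals and the genotype therefore cannot be told apart. The sorted cells had the T-cell genes Cd3e, Cd3d and Lck and the NKT factor Zbtb16 on all 5 arrays.

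All 7 genes were well above background on all 5 arrays, so that none passed a filter on dim probes through 1 group only. In each of them both IL15ko arrays lay above all 3 wild-type arrays after scaling, as they did in 25.1% of the 11992 genes tested, while both lay below in 22.1%. Limma called 6 of the 7 higher in IL15ko at an adjusted p under 0.05 and none lower, where it called 3.75% of all genes higher and 3.58% lower, 7.33% in either direction. Ltb4r1 did not pass. Because the 7 genes were chosen with earlier results of these data known, these counts describe and are not an independent test. The folds, IL15ko over wild-type, ran between 2.03 and 2.93, and the median log2 difference was 1.16, beside 0.015 over all genes tested. Differences in fold between the genes were not tested, and the 95% confidence intervals of all 7 share the range between 2.05-fold and 2.52-fold. The number of calls rests on few arrays. It fell to 0 when wild-type 1, wild-type 2 or IL15ko 2 was left out and to 2 (Tmem176a and Tmem176b) without IL15ko 1, and it stayed at 6 without wild-type 3. It was also 0 with wild-type 1 and 2 averaged into 1 sample.

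**Figure D1:**
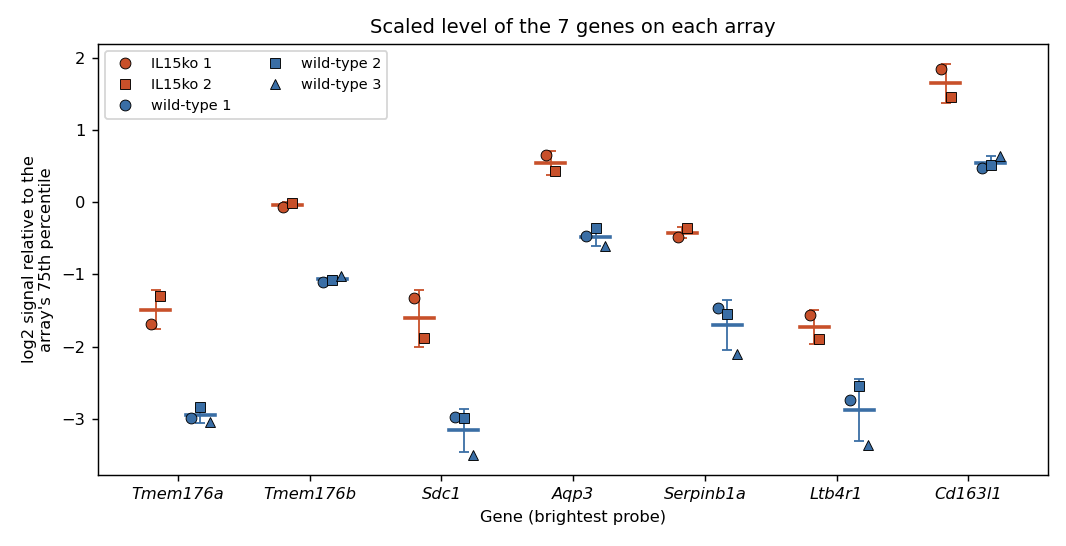
Level of the brightest probe of each gene on each array, as log2 of the processed signal minus the array's 75th percentile; points are arrays (IL15ko left, wild-type right of each pair), bars are group means and error bars SDs (n = 2 and 3). Both IL15ko points lie above all 3 wild-type points in each of the 7 genes, with the widest gap between the groups, 1.15, in Tmem176a and the narrowest, 0.648, in Ltb4r1.

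Tmem176a and Tmem176b encode multi-pass membrane proteins related to the MS4A family. Both genes have been described in IL-17-producing T cells of mouse. Tmem176a stood at 0.312 and 0.408 times the array's 75th percentile in IL15ko 1 and 2, against 0.126, 0.140 and 0.121 times in wild-type 1 to 3. The groups were far apart and the 3 wild-type arrays nearly level. Its log2 difference was 1.47 ± 0.17 (SE), a rise of 2.77-fold (95% confidence interval 2.05 to 3.73, limma adjusted p = 0.0172). Only 1.32% of the genes tested had a larger log2 difference. The call of Tmem176a was lost without wild-type 1, wild-type 2 or IL15ko 2 (adjusted p = 0.0773, 0.0569 and 0.0621).

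Tmem176b was measured by a pair of probes that differed. The brighter one, A_55_P1971963, stood at 0.953 and 0.993 times the 75th percentile in IL15ko, against 0.465, 0.473 and 0.494 times in wild-type. This was the tightest of the 7 genes within groups, with SDs of 0.042 in IL15ko and 0.045 in wild-type on the log2 scale (n = 2 and 3). It rose 2.04-fold (1.65 to 2.52, adjusted p = 0.0173). The dimmer probe, A_55_P1971962, stood at 0.111 and 0.0688 times the 75th percentile in IL15ko, against 0.0550, 0.0618 and 0.0745 times in wild-type, so that the groups overlapped. Its log2 difference was 0.47 ± 0.26 (adjusted p = 0.31 over 15571 named probes). On IL15ko 2 the spot of this dimmer probe was 1.52 times as bright as its local background, against 13.1 times for the brighter probe. With both probes averaged, Tmem176b had a log2 difference of 0.75 and was not called (adjusted p = 0.0631). For the brighter probe the call was also lost without wild-type 1, wild-type 2 or IL15ko 2 (adjusted p = 0.0927, 0.0715 and 0.0712). In the gene models of GRCm38.p6 the spans of Tmem176a and Tmem176b overlap, and the files do not give the probes' positions.

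Sdc1 showed the largest difference of the 7 genes. It stood at 0.397 and 0.270 times the 75th percentile in IL15ko 1 and 2, against 0.127, 0.126 and 0.0881 times in wild-type 1 to 3. Both IL15ko arrays were high, IL15ko 1 more so, and wild-type 3 was the lowest. Sdc1 rose 2.93-fold (1.87 to 4.59, log2 difference 1.55 ± 0.26, adjusted p = 0.0319). Its call was lost without wild-type 1, wild-type 2, IL15ko 1 or IL15ko 2 (adjusted p = 0.0946, 0.0786, 0.0824 and 0.0837), with log2 differences between 1.27 and 1.83 in these 4 fits. Among genes of the other cells that carry Sdc1, the B-cell and plasma-cell genes Cd79a, Ms4a1, Pax5, Ebf1 and Tnfrsf17 were well above background on 0 of 5 arrays. Cd79b and Cd22, on the same list, were so on all 5. Cd79b was 1.89-fold higher in IL15ko without passing, with groups that did not overlap (adjusted p = 0.0882), and Cd22 had a log2 difference of -0.03 (adjusted p = 0.961). The summed scaled signal of all 10 such markers was 0.186 and 0.297 in IL15ko, against 0.264, 0.256 and 0.148 in wild-type, and the part of such cells in the result was not tested.

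Aqp3 encodes a membrane channel for water and glycerol. Its values were 1.58 and 1.35 times the 75th percentile in IL15ko, against 0.723, 0.784 and 0.656 times in wild-type. The groups did not overlap, and wild-type 3 was again the lowest array. Aqp3 rose 2.03-fold (1.56 to 2.64, log2 difference 1.02 ± 0.15, adjusted p = 0.0249), and the call was lost without wild-type 1, wild-type 2, IL15ko 1 or IL15ko 2 (adjusted p = 0.111, 0.0756, 0.0675 and 0.0802). Aqp3 is also known from epithelia. Of 8 epithelial markers, Krt8 and Foxn1 were well above background on 0 of 5 arrays, Krt14 on all 5 and Krt5 on 4. Krt14 and Krt5 had log2 differences of 0.33 and -0.07 (adjusted p = 0.57 and 0.908). Epcam had a log2 difference of -1.73 without passing (adjusted p = 0.223), with groups that overlapped. It was well above background on 0 of 2 IL15ko and 2 of 3 wild-type arrays. The summed signal of the 8 was 0.0769 and 0.12 in IL15ko, against 0.459, 0.464 and 0.483 in wild-type. Most of it in wild-type came from Cdh1, which was called lower (adjusted p = 0.00305) and was well above background on 1 of 2 IL15ko and 3 of 3 wild-type arrays. The other 7 summed to 0.0474 and 0.0935 in IL15ko, against 0.0958, 0.118 and 0.0574 in wild-type, so that the groups overlapped. Ly75 was also called lower, but passed the filter through wild-type only, with 0 of 2 IL15ko and 2 of 3 wild-type arrays well above background.

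Serpinb1a is the exception to the membrane proteins: it encodes a cytosolic inhibitor of neutrophil serine proteases such as elastase. It stood at 0.719 and 0.778 times the 75th percentile in IL15ko, against 0.363, 0.341 and 0.234 times in wild-type. The IL15ko arrays agreed closely and wild-type 3 was well below the other wild-type arrays. Serpinb1a rose 2.44-fold (1.64 to 3.63, log2 difference 1.28 ± 0.23, adjusted p = 0.037). Without wild-type 1, wild-type 2, IL15ko 1 or IL15ko 2 it was not called (adjusted p = 0.0932, 0.0899, 0.0896 and 0.163).

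Ltb4r1 encodes BLT1, the receptor of the chemoattractant leukotriene B4. It stood at 0.340 and 0.269 times the 75th percentile in IL15ko, against 0.150, 0.172 and 0.0971 times in wild-type. The groups did not overlap, but the wild-type arrays spread more than in the other 6 genes, with an SD of 0.429 on the log2 scale (n = 3), and wild-type 3 was the lowest. The log2 difference was 1.16 ± 0.28 (2.23-fold, 1.36 to 3.67), and the adjusted p of 0.0746 missed the threshold. It passed in 4 of 20 alternatives, among them the restriction to genes well above background on all arrays (adjusted p = 0.0443), and the adjusted p ran between 0.0103 and 0.782 over the 20. Neutrophils and monocytes express both Ltb4r1 and Serpinb1a. The summed signal of 9 neutrophil and monocyte markers with a probe was 21.8 and 30.1 in IL15ko, against 31.5, 35.7 and 21.7 in wild-type. Nearly all of it came from Csf3r and Itgam, which were well above background on all 5 arrays and had log2 differences of -0.41 and 0.70 with overlapping groups (adjusted p = 0.367 and 0.312). Csf3r stood at 17 and 19.3 in IL15ko and 26.9, 29.5 and 17.4 in wild-type. For comparison, the T-cell gene Lck stood at 26 and 24.5 in IL15ko and 24.6, 24.4 and 26.3 in wild-type. What the Csf3r probe reports in these sorted cells was not tested. S100a9 was the only one of the 7 markers tested that was called, as lower. It passed the filter through wild-type only, with 0 of 2 IL15ko and 3 of 3 wild-type arrays well above background. Csf1r was well above background on all 5 arrays and had a log2 difference of -2.285 without passing (adjusted p = 0.0509). Both IL15ko arrays lay below all 3 wild-type arrays in Csf1r.

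Cd163l1, also named Scart1, encodes a receptor of the scavenger receptor cysteine-rich family that in mouse has been found on IL-17-producing gamma-delta T cells. It stood at 3.58 and 2.74 times the 75th percentile in IL15ko, against 1.40, 1.43 and 1.56 times in wild-type. The groups did not overlap. Wild-type 3 was the highest wild-type array here, unlike in Sdc1, Serpinb1a and Ltb4r1. Cd163l1 rose 2.14-fold (1.60 to 2.87, adjusted p = 0.0266), and the call was lost without wild-type 1, wild-type 2, IL15ko 1 or IL15ko 2 (adjusted p = 0.114, 0.0909, 0.0617 and 0.0563). Of the markers of gamma-delta T cells and type 3 innate lymphoid cells, 6 of 10 had a probe, and their summed signal was higher in IL15ko, at 0.726 and 0.693, against 0.546, 0.558 and 0.575 in wild-type. The T-cell receptor genes Trdc, Trdv4, Trgc1 and Trgv6 had no named probe, and Ncr1 was well above background on 0 of 5 arrays. Tnfsf11, which encodes RANKL, rose 2.21-fold (adjusted p = 0.0173), Gpr183 fell by 0.79 on the log2 scale (adjusted p = 0.0311), and Sox13 and Blk had log2 differences of 0.35 and 1.11 (adjusted p = 0.29 and 0.172). Sox13, Blk and Il22 are also NKT17 genes, and the part of gamma-delta T cells in the result was not tested.

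The members did not order the arrays within a group in the same way. After scaling, wild-type 3 was the lowest wild-type array in 5 of the 7 genes and the highest in 2, where it was the lowest in 42.1% and the highest in 42.1% of all genes tested. IL15ko 1 was above IL15ko 2 in 4 of the 7 genes, against 54.6% of all genes tested.

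The rise in IL15ko 2 rests on the scaling between arrays. Before scaling, IL15ko 1 was above all wild-type arrays in 7 of the 7 genes, while IL15ko 2 lay within the wild-type range in 4 and below it in 3. Sdc1, for instance, had processed signals of 536.1 and 118.9 in IL15ko 1 and 2, against 144.2, 111.4 and 172.3 in wild-type 1 to 3. Cd163l1 had 4842 and 1204 in IL15ko, against 1590, 1268 and 3061 in wild-type. Without any scaling the median log2 difference of all genes tested was -0.687, and those of the 7 genes lay between 0.32 (Aqp3) and 0.85 (Sdc1), with 0 called. Each of the 7 was thus higher relative to the other genes of the same arrays.

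**Figure D2:**
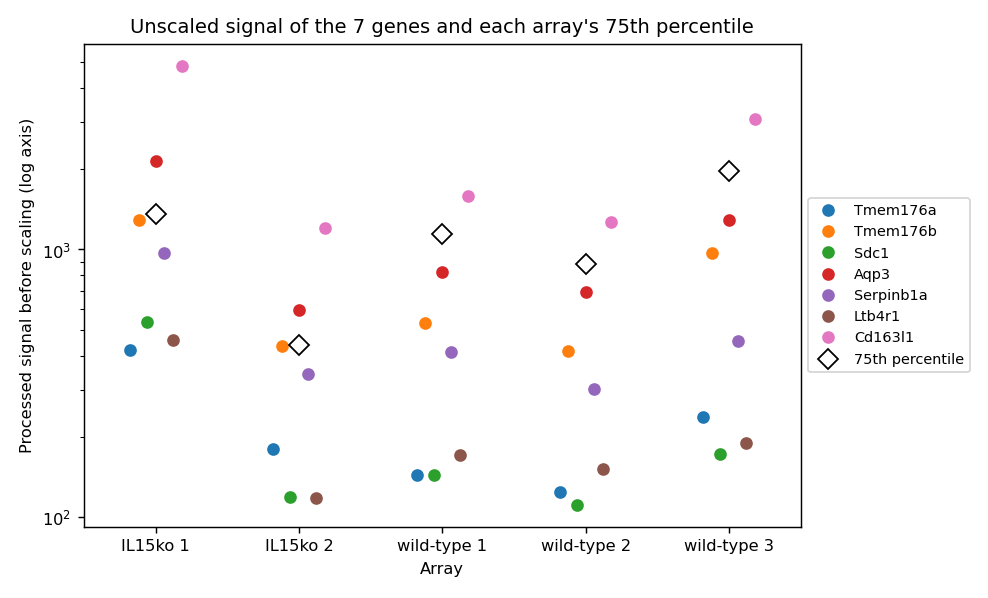
Processed signal of the brightest probe of each gene before scaling (log axis), by array, with each array's 75th percentile as an open diamond. The diamond lies at 440 on IL15ko 2 and between 885.1 and 1957 on the wild-type arrays, and every gene lies higher relative to it on both IL15ko arrays than on any wild-type array.

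All 7 genes had a positive log2 difference in 20 of 20 alternatives. The calls were less stable: Tmem176a was called in 13, Ltb4r1 in 4 and each of the other 5 in 11. Over all 20, the log2 difference of Sdc1 ran between 0.85 and 1.83, that of Tmem176a between 0.77 and 1.66, and that of Cd163l1 between 0.40 and 1.29.

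**Figure D3:**
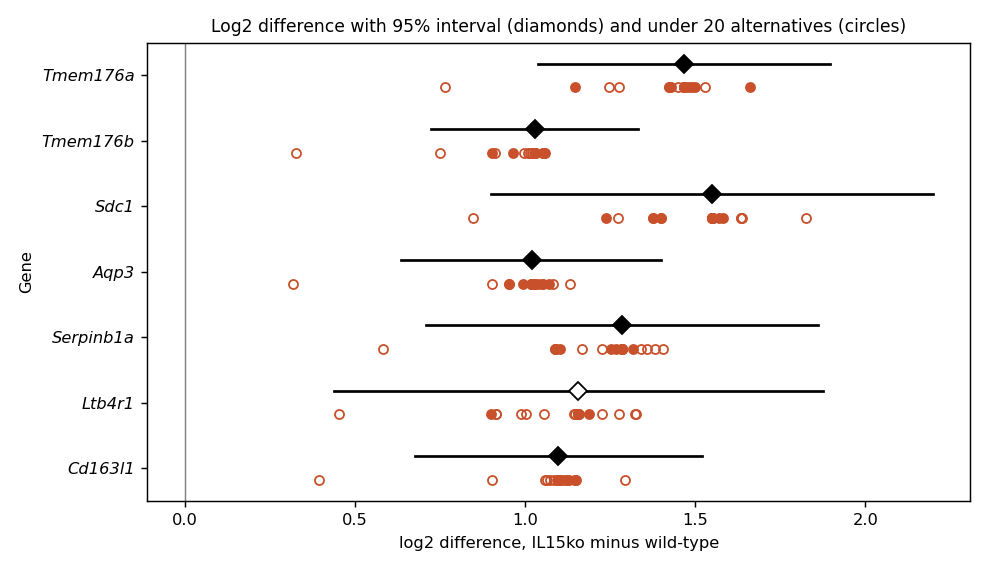
Log2 difference, IL15ko minus wild-type, of each gene: the diamond is the main value with its 95% confidence interval (filled where the adjusted p was under 0.05), and circles are the 20 alternatives (filled where called). All circles lie above 0, and the lowest circle of each gene is the value without scaling between arrays.

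The other genes of the NKT17 programme were called higher more often than lower, but many did not pass. Of 28 listed, 27 had a probe and 24 were tested. There were 11 calls higher, 2 lower and 11 without a call, and the median log2 difference was 0.78. Over all genes tested, 3.75% were called higher and 3.58% lower. The receptor genes Il1r1 and Il23r rose 5.05-fold and 3.71-fold (adjusted p = 0.0087 and 0.00785), and the transcription factor gene Irf4, which is also an NKT2 gene, rose 3.25-fold (adjusted p = 0.00785). Ccr6, the chemokine receptor of IL-17-producing T cells, rose 2.55-fold (adjusted p = 0.0329). Kcnk1, a potassium channel gene, was called higher (adjusted p = 0.00881) but was well above background on 2 of 2 IL15ko and 2 of 3 wild-type arrays only. The genes called lower were Ahr, a ligand-activated transcription factor (log2 difference -1.13, adjusted p = 0.0262), and the chemokine receptor gene Cxcr6 (-0.77, adjusted p = 0.0485). Among the genes that did not pass, Maf and Rora had log2 differences of 0.30 and 0.45 (adjusted p = 0.272 and 0.346). Il17a itself was well above background on 1 array and Il17f on none. The number of NKT17 genes called higher was 1 when wild-type 1 was left out, 4 for wild-type 2, 11 for wild-type 3 and 5 for either IL15ko array.

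The lists of the other subsets moved in opposite directions. Of 13 NKT2 genes, 8 were called higher and 1 lower (median log2 difference 1.12). Of 15 NKT1 genes, 0 were called higher and 10 lower (median -1.77). Over all genes tested, 3.75% were called higher and 3.58% lower. Among the NKT1 genes called lower, Klrk1 passed the filter through wild-type only. Klrk1 was well above background on 0 of 2 IL15ko and 3 of 3 wild-type arrays. The T-bet gene, Tbx21, was called lower, at a log2 difference of -1.77 (adjusted p = 0.00881), and Zbtb16, which encodes PLZF, rose 2.83-fold (adjusted p = 0.0161). The median of the 7 genes, 1.16, lay close to that of the NKT2 list, and a difference between the lists was not tested. The number of NKT2 genes called higher was 0 without wild-type 1, 3 without wild-type 2 or IL15ko 2 and 5 without IL15ko 1, and that of NKT1 genes called lower was 4 without wild-type 1 and 6 without wild-type 2.

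**Figure D4:**
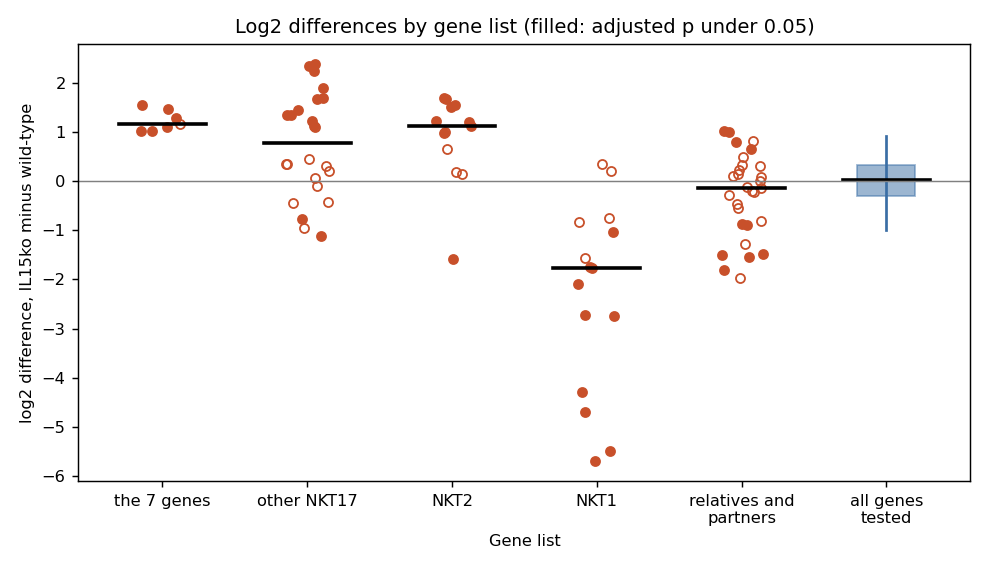
Log2 differences, IL15ko minus wild-type, of single genes (points, filled where the adjusted p was under 0.05) in the 7 genes and in 4 lists, with medians as black bars; the box and line of all genes tested give the middle 50% and the range between the 5th and 95th percentiles (-1.003 to 0.923). The 7 genes lie between 1.02 and 1.55, inside the range of the NKT2 genes and of the other NKT17 genes, while NKT1 genes reach -5.71 (Gzma).

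Relatives and partners of the 7 genes did not rise as a body. Of 53 listed, 52 had a probe and 29 were tested. There were 4 calls higher, 6 lower and 19 without a call, and the median log2 difference was -0.13. Over all genes tested, 3.75% were called higher and 3.58% lower. Of 5 MS4A genes related to Tmem176a and Tmem176b that were tested, 2 were called lower and 0 higher. Ms4a4b, a T-cell member of that family, fell by 1.51 on the log2 scale (adjusted p = 0.0103), and Ms4a6c was called lower (adjusted p = 0.0124) with 1 of 2 IL15ko and 3 of 3 wild-type arrays well above background. Ms4a4c, Ms4a6b and Ms4a6d did not pass (adjusted p = 0.428, 0.277 and 0.0874), and the B-cell gene Ms4a1 had 0 of 5 arrays well above background.

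Around Sdc1, the other syndecan genes gave little signal: Sdc2 and Sdc4 each had 0 of 5 arrays well above background and Sdc3 had a log2 difference of 0.10 (adjusted p = 0.789). Among enzymes that build the heparan sulphate chains, Ext1, a chain polymerase, rose 1.99-fold (adjusted p = 0.021) and Ndst1, a sulphotransferase, rose 1.73-fold (adjusted p = 0.0316). Ext2, the partner of Ext1, was well above background on 3 arrays and had an adjusted p of 0.33. Hpse, which encodes the chain-cutting heparanase, was called higher (adjusted p = 0.0422) but was well above background on 1 array of each group only. The glypican gene Gpc1, another heparan sulphate proteoglycan, fell by 1.54 (adjusted p = 0.0175).

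None of the 4 other aquaporin genes tested was called, and Aqp11, with the largest value, had a fold of 1.26 (adjusted p = 0.278). Of 4 relatives and partners of Serpinb1a tested, 2 were called lower and 0 higher. Serpinb9, an inhibitor of granzyme B, fell by 1.47 on the log2 scale (adjusted p = 0.0125) and Serpinb6b by 0.90 (adjusted p = 0.0286), while the log2 difference of Serpinb6a was 0.15 (adjusted p = 0.516). The near copies Serpinb1b and Serpinb1c were well above background on 1 array and on none. Elane, which encodes a protease that Serpinb1a inhibits, differed by 0.09 (log2, adjusted p = 0.865).

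Among leukotriene genes, the receptor gene Cysltr2 fell by 0.87 (adjusted p = 0.0304) and Cysltr1 stood 0.81 higher on the log2 scale without passing (adjusted p = 0.0728). Ltb4r2, the low-affinity receptor of leukotriene B4, had a log2 difference of -1.98 with an adjusted p of 0.105. It was well above background on 1 of 2 IL15ko and 3 of 3 wild-type arrays. Alox5, the first enzyme of leukotriene synthesis, had 0 of 5 arrays well above background, and Lta4h, which makes leukotriene B4, had a log2 difference of -0.22 (adjusted p = 0.437). Of the scavenger-type receptors, Cd5 rose 1.58-fold (adjusted p = 0.0398), while the log2 differences of Cd6 and of 5830411N06Rik, also named Scart2, were 0.00 and -0.20 (adjusted p = 0.993 and 0.751).

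The genes with array profiles most like each member were sought among 9760 other genes well above background on all 5 arrays, by the root mean square (RMS) difference of mean-centred log2 values over the 5 arrays. Among the 3 genes nearest to Sdc1 were Pdlim4 (RMS 0.0947) and Ptprb (0.0951). Nearest to Tmem176a were Zbtb16 (0.0823), Ckb and Emb, and nearest to Tmem176b were Mboat7 (0.03), Tspan31 and the costimulatory receptor gene Icos. Serpinb1a lay nearest to Ccr6 (0.0434), Uhrf1 and Grk3. Cd163l1 lay nearest to the chemokine receptor genes Ccr4 (0.0357) and Ccr10 and to Timeless, and Aqp3 to Cenpa (0.043), Avpi1 and Cmss1. For Ltb4r1 they were Ccnb2 (0.0845), Mcm10 and Rad51ap1, genes of mitosis and DNA replication. The median gene lay at 0.517 to 0.802 from the same members. Within the 7, Tmem176b and Aqp3 were the closest pair (0.139) and Tmem176b and Sdc1 the farthest (0.387), while Tmem176a and Tmem176b stood at 0.254. These are descriptions of 5 arrays that share 1 slide.

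Markers of 2 other cell types were also examined beside the 7 genes. Dendritic cells also express Tmem176a and Tmem176b. Of 10 markers of these cells, Itgax, Flt3, Xcr1 and Clec9a had 0 of 5 arrays well above background. The summed signal of the 10 was 30.3 and 40.9 in IL15ko, against 44.5, 48.1 and 30.6 in wild-type, and nearly all of it came from Siglech, at 30.1 and 40.6 in IL15ko, against 44.2, 47.7 and 30.5 in wild-type, with overlapping groups (adjusted p = 0.646). Siglech was brighter on every array than the T-cell gene Lck, at 26 and 24.5 in IL15ko and 24.6, 24.4 and 26.3 in wild-type. What the Siglech probe reports in these sorted cells was not tested. The other 9 dendritic-cell markers summed to 0.259 and 0.283 in IL15ko, against 0.282, 0.424 and 0.13 in wild-type. Cd74 was the only one of the 5 tested that was called, 2.09-fold higher (adjusted p = 0.0294). Zbtb46, H2-Ab1 and H2-Eb1 had log2 differences of -0.715, -1.15 and -1.60 without passing (adjusted p = 0.125, 0.505 and 0.411). They were well above background on 1, 1 and 0 of 2 IL15ko arrays and on 3, 3 and 2 of 3 wild-type arrays. The groups overlapped in H2-Ab1 and H2-Eb1 but not in Zbtb46. Of 7 markers of double-positive thymocytes, Rag1, Rag2, Ptcra, Cd8a and Cd8b1 had 0 of 5 arrays well above background. The summed signal of these 7 was higher in IL15ko, at 2.51 and 3.08, against 1.61, 1.83 and 1.30 in wild-type. Nearly all of it came from Cd4, at 2.45 and 2.91 in IL15ko, against 1.47, 1.69 and 1.26 in wild-type. Without Cd4, the other 6 summed to 0.0606 and 0.162 in IL15ko, against 0.142, 0.14 and 0.0401 in wild-type, so that the groups overlapped. Cd4 and Dntt, both well above background on all 5 arrays, had log2 differences of 0.87 and 0.08 (adjusted p = 0.053 and 0.96). The part of thymocytes in the result was not tested.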

How the data were processed

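Spot intensities on a linear scale were deposited as written by Agilent Feature Extraction 10.7.1.1, per the file headers, on a design annotated on mm9. Background was subtracted and spatial trend removed for the processed signal, without scaling between arrays. Other deposited columns are 0 or 1 flags, such as well above background. The authors' deposited value table holds linear intensities, not scaled between arrays (medians of 25.4 and 15.8 in IL15ko and 26.7, 23.6 and 28.0 in wild-type). Its offset is unknown, and it served as an alternative. Limma also appears in the submitters' processing notes, without settings.

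Each array's processed signal was taken to log2 and its 75th percentile subtracted, computed over probes well above background on all arrays, since under 50% of probes were so on every array. Outlier spots were left out, no spot was saturated, and spots of 1 probe were averaged. Accessions were matched to RefSeq symbols of GRCm38.p6, which named 26425 of 55681 probes. Each gene was represented by its brightest probe. Genes with 2 or more arrays well above background, 11992 in all, entered a limma 3.58.1 fit (R 4.3.3; lmFit, eBayes) with no covariates and Benjamini-Hochberg adjustment over all of them, which was also tested on simulated data. Its degrees of freedom were 3 residual and 2.28 prior. A summed signal adds the scaled linear values of a list's brightest probes. Normexp used the spot median in place of the planned spot mean. All arrays were on 1 slide, so that slide could not be tested as a batch. The number of arrays limits the precision. Promoter sequences are from RefSeq (GRCm38.p6), matched by symbol.

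Named were the 7 genes with every probe, up to 4 genes per direction of each list by smallest p and those needed to describe a count, the 3 genes most like each member, and cell markers. The 7 genes and the lists were chosen with earlier results of these data known. Xist, Uty, Kdm5d, Ddx3y and Eif2s3y were named after their values were seen. Some members of the lists are counted but not reported by name here.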

Additional observations from a re-analysis of the deposited data

How the results depend on the processing

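With 20 alternatives, 19 planned and 1 (no scaling between arrays) chosen after seeing the data, the direction of all 7 genes held in each, whereas counts of calls did not. Of 450 genes called higher and 429 lower, 6 members called higher, 11 and 2 other NKT17 genes called higher and lower, 4 and 6 relatives called higher and lower, 8 and 1 NKT2 genes called higher and lower and 10 NKT1 genes called lower, the following moved by over 1.5 times. Normexp with the 75th percentile and an offset of 50 gave 0 genes higher and 1 lower, an NKT1 gene. No filter on dim probes gave 0 higher and 3 lower, 1 of them an NKT1 gene. No scaling gave 2 higher and 97 lower, among these 6 NKT1 genes. These 3 settings gave 0 calls in the members, the other NKT17 genes, the relatives and the NKT2 genes. With wild-type 1 and 2 averaged there were 33 higher and 63 lower, 0 members, 4 and 0 NKT17 genes, 0 and 0 relatives, 1 and 0 NKT2 genes, and 5 NKT1 genes. The fit with the replicate block gave 138 higher and 242 lower, 1 member (Tmem176a), 6 and 0 NKT17 genes, 0 relatives higher and 4 and 0 NKT2 genes. Genes called higher were 820 with normexp and quantile normalization, 710 when restricted to all arrays and 819 with a trended robust prior (then 696 lower). NKT17 genes called lower were 1 with the 75th percentile over all probes, quantile normalization, median centring, the authors' deposited table, every named probe and the mean over probes. The cause was not tested. Leaving out 1 array gave 6 to 424 genes higher, 27 to 487 lower, 0 to 6 members higher, 1 to 11 NKT17 genes higher, 0 to 1 lower, 0 to 2 relatives higher, 0 to 7 lower, 0 to 8 NKT2 genes higher, 0 to 1 lower and 4 to 9 NKT1 genes lower; with IL15ko reduced to 1 array, the lone sample was assumed to vary like the others.

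The replicate numbers are not known to pair the samples: same-numbered arrays had correlations of their deviations from the group means of -0.129 and 0.209 over 11992 genes, so that the replicate block is given here only. Dim probes limit what can be seen, such as Il17a and Il17f.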
